A study of Mus musculus with 12 samples.

Results

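The genes described here are 40 genes of the cell's response to stress in the endoplasmic reticulum (ER) and to lack of amino acids. They were taken as a list of gene symbols from the annotation of the array, and for each gene the probe set with the strongest average signal over the 12 arrays stands for it. All 40 were among the 18193 genes named on the array, and all 40 passed the filter on low signals that left 13067 genes for testing. RNA came from D3, a line of mouse embryonic stem (ES) cells, in 4 groups of 3 arrays that share a growth protocol: culture on feeder fibroblasts treated with MMC and differentiation as embryoid bodies, which are floating cell aggregates. Control day0 arrays held ES cells given no agent. Control day8 arrays held cells at day 8 of differentiation, also with no agent, and BPA day8 and NP day8 arrays held cells at the same day with the agent of that name. The labels give no doses, do not spell out BPA and NP, and leave unsaid if the replicates came from different cultures. The p-values therefore describe no more than the spread among these arrays. Values are log2 signals, errors of group means are SDs, and each change carries its standard error from limma fitted to the 12 arrays, with p-values adjusted by the Benjamini-Hochberg method over 13067 genes and a threshold of 0.05.

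When misfolded protein accumulates in the ER, the sensors encoded by Eif2ak3 (PERK), Ern1 (IRE1) and Atf6 start separate branches of the unfolded protein response. The ATF6 and IRE1 branches, the latter through splicing of Xbp1 mRNA, raise chaperones and the machinery that removes misfolded protein from the ER. PERK phosphorylates the translation factor eIF2, as other kinases do when amino acids are scarce, and this favours translation of Atf4 mRNA. ATF4 protein then raises genes for amino acid synthesis, one-carbon metabolism and feedback. Because ATF4 activity is set largely by translation, and that of XBP1 by splicing, the RNA level of Atf4 or Xbp1 does not report the activity of either protein.

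The branches differ in the DNA elements of their target promoters, and these letters are shown because the members are compared along that division. RefSeq promoter windows (GRCm38.p6) of 250 bases before to 50 bases after the annotated start were given for 37 of the 40 members. Both strands were searched for TGATGNAA, the core of the amino acid response element, for TTGCATCA, the composite C/EBP-ATF site, for the ER stress response element (CCAAT, any 9 bases, CCACG), and for TGACGTGG, an element bound by XBP1. TTGCATCA is the reverse complement of one form of TGATGNAA, so each of its matches is also a match of the core. The core was found for 6 of the 37 members (Atf3, Nupr1, Trib3, Chac1, Asns and Herpud1). It was in 3.97% of all 32851 windows, and 4.51% of all 27025 genes with a window held it. The composite site was found for 4 members, in 0.895% of windows and for 1.03% of genes. The ER stress response element was found for 8 members (Hspa5, Hsp90b1, Pdia6, Calr, Canx, Dnajc3, Creld2 and Syvn1), in 0.119% of windows and for 0.137% of genes. Of the 19 genes of the ATF4 branch 5 held the core and 0 the ER stress response element. Among its 12 feedback and metabolic targets 3 held the core (Trib3, Chac1 and Asns), so that Asns was the only metabolic target with a match. Of the 11 ER chaperones with a window 0 held the core and 7 the ER stress response element. TGACGTGG was found in 0.676% of windows, for 0.714% of genes and for 0 members. Stretches around the matches are printed 5′ to 3′ on the strand of the gene and before its start, with the match in capitals.
Nupr1 (chr7:126625528-126625627, minus strand): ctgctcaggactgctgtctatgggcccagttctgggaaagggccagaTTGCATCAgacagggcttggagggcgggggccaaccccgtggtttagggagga
Asns (chr6:7693210-7693309, minus strand): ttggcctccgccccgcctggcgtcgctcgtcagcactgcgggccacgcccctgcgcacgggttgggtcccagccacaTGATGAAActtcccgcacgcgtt
Chac1 (chr2:119351002-119351101, plus strand): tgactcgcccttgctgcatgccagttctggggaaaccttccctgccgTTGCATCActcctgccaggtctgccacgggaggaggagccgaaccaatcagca
Herpud1 (chr8:94386270-94386369, plus strand): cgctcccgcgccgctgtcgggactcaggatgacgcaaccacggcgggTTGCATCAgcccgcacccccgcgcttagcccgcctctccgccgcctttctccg
Hspa5 (chr2:34771984-34772083, plus strand): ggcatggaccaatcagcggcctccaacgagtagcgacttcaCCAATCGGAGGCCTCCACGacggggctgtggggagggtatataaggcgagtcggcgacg
Canx (chr11:50325760-50325859, minus strand): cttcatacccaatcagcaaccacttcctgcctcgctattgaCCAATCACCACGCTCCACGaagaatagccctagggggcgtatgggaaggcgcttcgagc
Creld2 (chr15:88819479-88819578, plus strand): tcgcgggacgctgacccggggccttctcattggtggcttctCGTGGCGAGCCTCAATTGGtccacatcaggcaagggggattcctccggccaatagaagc
Hsp90b1 (chr10:86705516-86705675, minus strand): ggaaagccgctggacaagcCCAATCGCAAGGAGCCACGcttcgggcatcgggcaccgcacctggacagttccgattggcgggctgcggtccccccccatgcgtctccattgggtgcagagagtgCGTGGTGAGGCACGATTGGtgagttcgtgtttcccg
In Nupr1, Chac1 and Herpud1 the capitals are TTGCATCA, in Asns another form of the core, and in the other genes the ER stress response element, which Hsp90b1 holds in both orientations. The match of Trib3 lies after the annotated start. These are matches of letters, not measured binding. CCAAT and CCACG were searched at this spacing and in this arrangement only. Beyond its printed stretch, the window of Herpud1 holds attgggccacg, in which CCACG closely follows the reverse complement of CCAAT. A lack of a match therefore does not show that a window holds no element of ER stress.

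**Figure D1:**
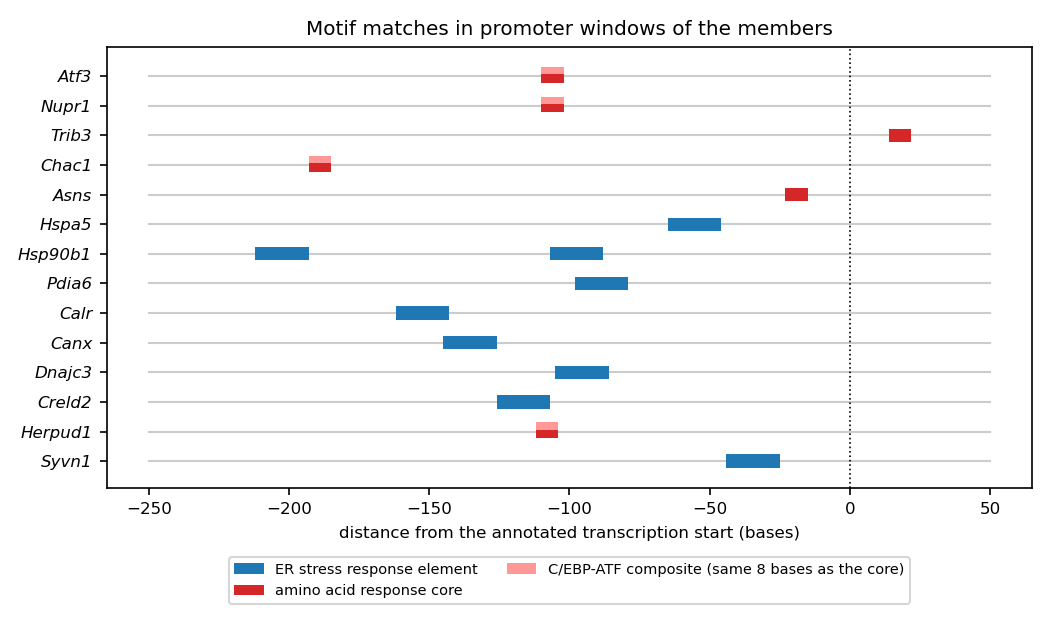
Position of motif matches in the promoter windows of the 14 members with a match; the x axis is the distance from the annotated transcription start in bases, and each bar is 1 match. The core of the amino acid response element (red, with the composite site in pink over it) lies in ATF4 branch genes and Herpud1. The ER stress response element (blue), in the form searched, lies in 7 chaperone genes and Syvn1.

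A background level of 3.41 was the highest of 36 values of 3 bacterial control probe sets (a level chosen after the data were seen). Between 58.3% and 62.3% of probe sets on each array lay above it. So did every value of the 40 members on their chosen probe sets. The lowest was 4.43, for Nupr1. The mean of 10 pluripotency markers was 10.89 to 10.99 on control day0 arrays, 7.46 to 8.46 on control day8, 10.22 to 10.30 with BPA and 9.87 to 10.30 with NP. The mean of 12 yolk sac and endoderm markers was 2.80 to 3.22 on control day0 arrays, with Afp, Ttr, Apoa4 and Hnf4a under background on all 3, and 8.49 to 9.58 on day8 arrays of every kind. The mean of 12 fibroblast markers was 8.62 to 9.01 on control day0 arrays, 7.16 to 7.67 on control day8, 4.79 to 5.35 with BPA and 4.94 to 5.21 with NP. The mean of 10 cardiac markers was 3.16 to 3.54, 7.97 to 8.74, 5.08 to 6.05 and 5.14 to 7.21 in turn. The fibroblast markers were mixed over control culture, with 5 of 12 changes above 0 and 7 below, from -7.12 to 2.94. In these bulk samples fewer cells of a type and less RNA per cell cannot be told apart. The part of these cell types in the changes of the 40 genes was not tested.

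Over 8 days of control culture, 5 of 7 metabolic ATF4 targets (Asns, Psat1, Psph, Shmt2 and Mthfd2) and Nupr1 fell, while Xbp1, Dnajc3 and several genes of ER quality control rose. Of the 40 members 10 were higher and 13 lower at day 8, which is 57.5% beside 48.7% of all genes tested (3692 genes higher and 2673 lower). The median change of the members was -0.06 and that of all genes 0.12. In the ATF4 branch 4 of 19 genes rose and 10 fell, against 2 and 2 of 13 ER chaperones, and 4 of 8 sensor and degradation genes rose and 1 fell. The groups did not overlap for 26 of the 40 members, beside 56.8% of all genes.

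With either agent 6 members were higher than in control day8, and 3 were lower with BPA and 0 with NP. With BPA this was 22.5% of the members beside 22.2% of all genes (1569 genes higher and 1337 lower). With NP it was 15% beside 14.2% (1032 and 820 genes), so that as a list the members were called about as often as other genes. Asns passed with the smallest adjusted p of any member that rose with each agent, and Nupr1 had the largest rise. Groups did not overlap for 17 members with BPA, beside 41.6% of all genes, and for 16 with NP, beside 34.8%. Both comparisons use the same control day8 arrays. Quantile normalization gave 5 members higher and 5 lower with BPA and centring on the median 8 and 1, against 8 higher and 0 lower with NP by both. Without control day8 replicate 1 the count of members was 2 with BPA and 1 with NP. It was 4 and 1 without control day8 replicate 2. With BPA it was 5 without BPA day8 replicate 2 or without replicate 3. With NP it was 2 without NP day8 replicate 2 and 1 without replicate 3. The fits without an array are over fewer arrays.

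**Figure D2:**
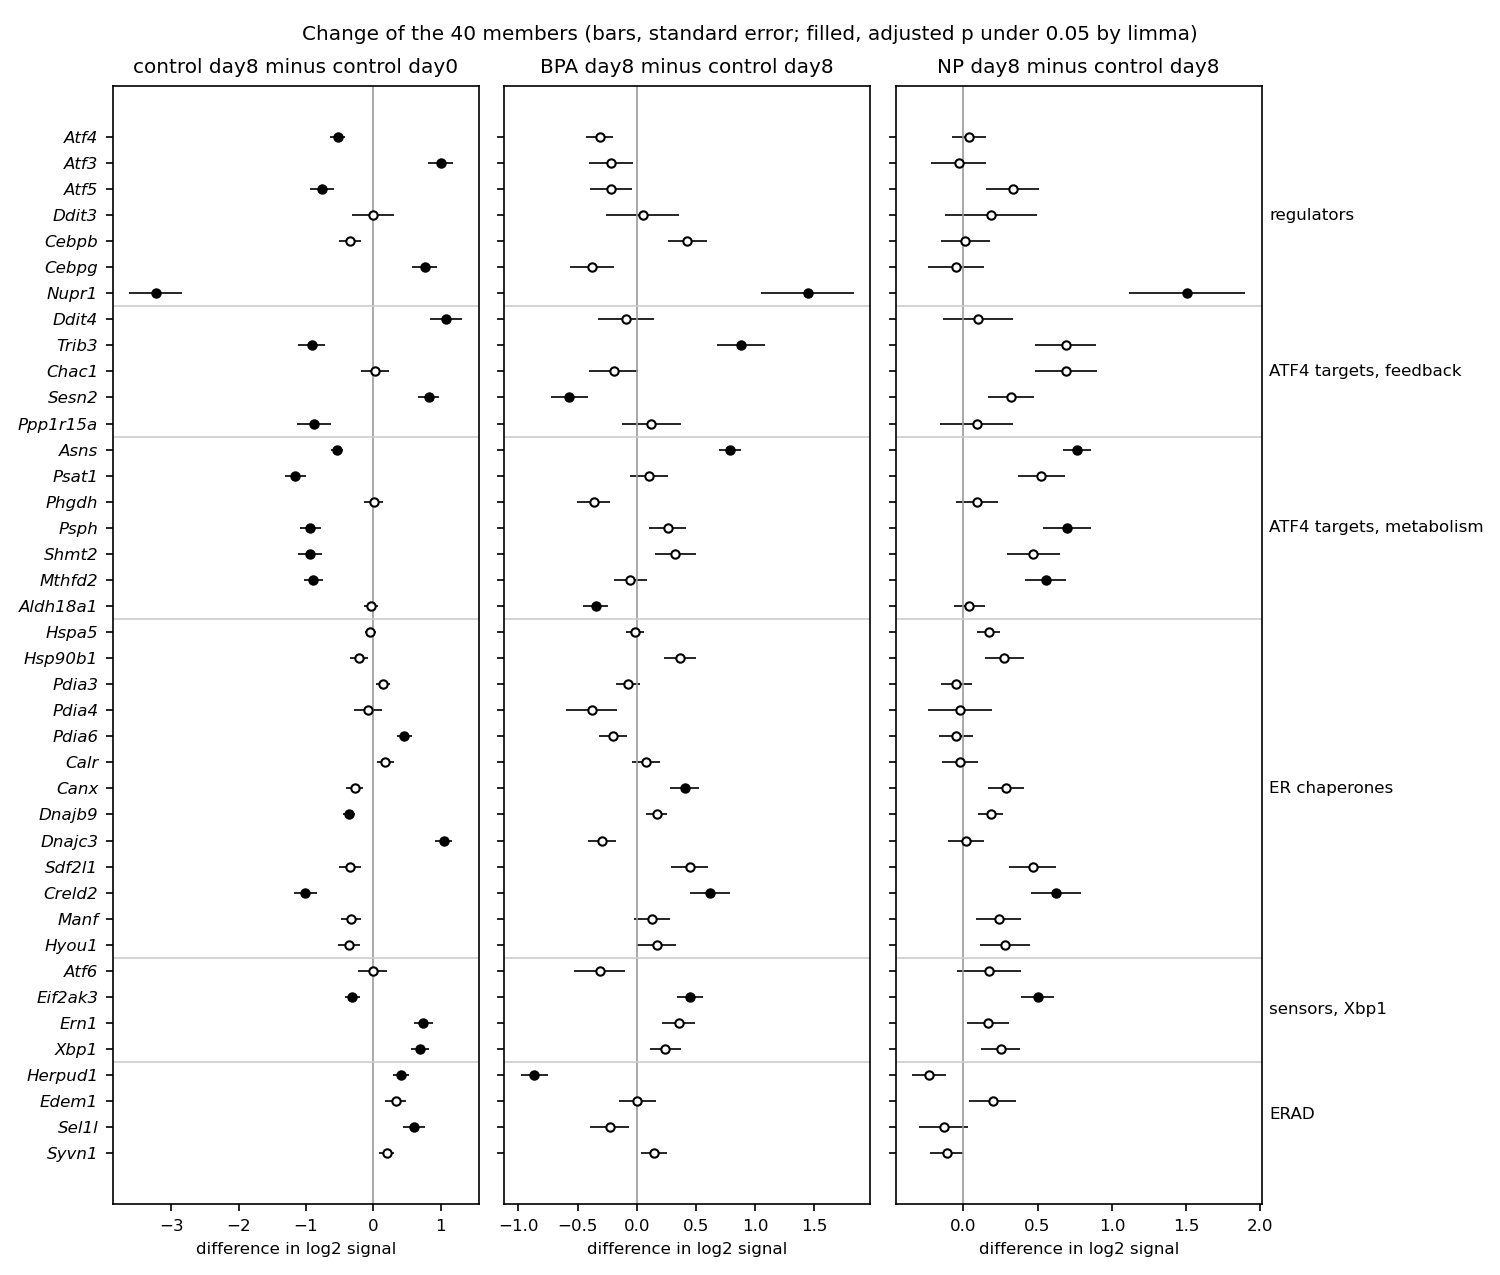
Change in log2 signal of each of the 40 members for control day8 minus control day0, BPA day8 minus control day8 and NP day8 minus control day8, with standard errors, grouped by role; the x axes differ in range, and filled points passed an adjusted p of 0.05 by limma. Nupr1 has the largest change in every panel, and the metabolic ATF4 targets lie right of 0 with NP and on both sides of 0 with BPA.

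Among the regulators, Atf4 encodes the transcription factor that gives the branch its name. Atf4 gave log2 signals of 10.75, 10.78 and 10.73 on control day0 arrays, 10.37, 10.09 and 10.21 on control day8, 9.97, 10.07 and 9.69 with BPA and 10.21, 10.31 and 10.27 with NP. All 3 control day0 arrays lay above all others, and BPA arrays lay below every control day8 array. The change was -0.53 ± 0.12 (adjusted p = 0.00411) over control culture, -0.31 ± 0.12 (adjusted p = 0.0809) with BPA and 0.04 ± 0.12 (adjusted p = 0.874) with NP. The second probe set of Atf4 above the filter gave -0.46, 0.10 and 0.25 in turn. Ddit3 gave log2 signals of 6.43, 6.27 and 6.42 on control day0 arrays, 6.41, 5.87 and 6.82 on control day8, 6.57, 5.94 and 6.74 with BPA and 6.07, 6.54 and 7.05 with NP. Ddit3 encodes CHOP, a factor linked to cell death under lasting ER stress. Its groups overlapped in each of the 4 comparisons, and no change passed, the 2 agents giving 0.05 ± 0.31 with BPA and 0.19 ± 0.31 with NP. A dimmer probe set of Ddit3 passed the filter, but its mean of 3.22 lay under the background of 3.41. Its BPA mean was 1.29. It gave -2.61 with BPA, 0.25 with NP and 2.85 for NP minus BPA. Signals this low are little guide, and the chosen probe set did not settle the direction with BPA either.

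Nupr1 encodes a small chromatin-associated stress protein that is an ATF4 target. Nupr1 gave log2 signals of 8.27, 8.38 and 8.10 on control day0 arrays, 4.43, 5.004 and 5.62 on control day8, 5.78, 6.64 and 6.97 with BPA and 5.96, 6.54 and 7.07 with NP. Control day0 arrays were highest, control day8 arrays lowest, and both agents in between with no overlap with either control group. Signal at day 0 was 9.38-fold that at day 8, a change of -3.23 ± 0.39 (adjusted p = 0.000137). It rose by 1.44 ± 0.39 (adjusted p = 0.0266) with BPA and by 1.51 ± 0.39 (adjusted p = 0.0328) with NP. The second probe set of Nupr1 gave -3.12, 1.59 and 1.54 in turn. Leaving out replicate 1 or 2 of control day8, or replicate 2 or 3 of the agent, ended both agent calls, with an adjusted p up to 0.0961 with BPA and 0.113 with NP.

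Of the other regulators, Atf3, a repressor induced by ATF4, rose over control culture by 1.003 ± 0.19 and Cebpg, a dimer partner of ATF4, by 0.76 ± 0.19, while Atf5, a factor related to ATF4, fell (-0.77 ± 0.18). None of these 3 passed with an agent by limma, and their changes with BPA and NP lay between -0.38 and 0.33. For Cebpg the other probe sets gave 0.54 and 0.16 with BPA, against -0.38 on the chosen one. Cebpb, a C/EBP factor, was at 8.498 ± 0.09 (SD, n = 3) in control day8, 8.92 ± 0.23 with BPA and 8.51 ± 0.18 with NP. BPA arrays lay above both other day8 groups, but the change of 0.43 ± 0.16 (adjusted p = 0.093) did not pass.

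Genes of feedback and growth control under ATF4 moved in different directions. Trib3 gave log2 signals of 6.9998, 7.27 and 7.13 on control day0 arrays, 5.88, 6.17 and 6.61 on control day8, 7.07, 7.24 and 6.99 with BPA and 6.65, 6.82 and 7.25 with NP. Trib3, a pseudokinase that restrains ATF4 and AKT, was lower on every control day8 array than on any array of the other groups. It fell by 0.92 ± 0.20 (adjusted p = 0.00456) over control culture and rose by 0.88 ± 0.20 (adjusted p = 0.0137) with BPA. With NP the change of 0.69 ± 0.20 (adjusted p = 0.052) did not pass. A second probe set of Trib3 gave 0.46 with BPA and 0.79 with NP. The BPA call ended without control day8 replicate 1 (adjusted p = 0.0508).

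Sesn2 gave log2 signals of 6.26, 6.16 and 6.06 on control day0 arrays, 7.01, 7.02 and 6.92 on control day8, 6.59, 6.54 and 6.11 with BPA and 7.52, 7.33 and 7.06 with NP. Sesn2 encodes sestrin 2, a leucine sensor that holds back mTORC1. NP arrays were highest, and BPA arrays lay below every control day8 array, the lowest of them within the range of control day0. The gene rose over control culture (0.82 ± 0.15, adjusted p = 0.00177) and fell with BPA (-0.57 ± 0.15, adjusted p = 0.0272). With NP it was at 0.32 ± 0.15 (adjusted p = 0.208). A second probe set of Sesn2 above the filter gave -0.25, 0.07 and -0.02 in turn, and no call was made on the mean of both. The BPA call was lost on leaving out replicate 1 or 2 of control day8 or replicate 3 of BPA day8 (adjusted p up to 0.08), and under 4 of the 10 other settings.

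Chac1, which degrades glutathione, was at 7.07 ± 0.20 in control day8, 6.88 ± 0.22 with BPA and 7.76 ± 0.16 with NP (SD, n = 3). The 3 NP arrays, at 7.61 to 7.92, lay above all other arrays of the series, and the change of 0.69 ± 0.21 (adjusted p = 0.054) against control day8 did not pass. Ddit4, an inhibitor of mTORC1, rose over control culture (1.08 ± 0.24, adjusted p = 0.00416), and Ppp1r15a, which directs dephosphorylation of eIF2, fell (-0.88 ± 0.25, adjusted p = 0.0155). The second call ended without control day0 replicate 2 or control day8 replicate 1 (adjusted p up to 0.0581). With an agent the changes of both lay between -0.09 and 0.12.

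Asns, asparagine synthetase, is the classic target of the amino acid response. Asns gave log2 signals of 10.92, 10.97 and 10.84 on control day0 arrays, 10.27, 10.40 and 10.44 on control day8, 11.22, 11.10 and 11.17 with BPA and 11.02, 11.15 and 11.23 with NP. Control day8 arrays were lowest, and arrays of both agents lay above every control array, day 0 included. Asns fell by 0.54 ± 0.09 over control culture (adjusted p = 0.00111) and rose by 0.79 ± 0.09 (adjusted p = 0.000671) with BPA and by 0.76 ± 0.09 (adjusted p = 0.0014) with NP, which is 1.73-fold and 1.70-fold. The chosen probe set carries a suffix that marks possible cross-hybridisation, and a second one without it gave -0.51, 0.55 and 0.58. The chosen probe sets of Trib3, Phgdh, Shmt2 and Aldh18a1 carry the same suffix. Without it, the probe set of Trib3 gave 0.46 with BPA and 0.79 with NP, and that of Aldh18a1 -0.03 and 0.10. All 3 calls of Asns held on leaving out any 1 of the 12 arrays (highest adjusted p 0.00424 with BPA and 0.00927 with NP) and under each of the 10 other settings.

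Of the 7 metabolic targets 5 fell over control culture, 3 rose with NP, and with BPA 1 rose and 1 fell. The share called was 71.4%, 42.9% and 28.6% in turn, beside 48.7%, 14.2% and 22.2% of all genes. The median change was -0.89, 0.52 and 0.11 in turn, beside 0.12, 0.01 and 0.04 over all genes tested. Psph gave log2 signals of 9.35, 9.21 and 9.05 on control day0 arrays, 8.32, 7.995 and 8.504 on control day8, 8.60, 8.56 and 8.43 with BPA and 8.81, 8.87 and 9.23 with NP. Psph, phosphoserine phosphatase, is the last step of serine synthesis. NP arrays lay above every BPA and control day8 array and overlapped control day0 arrays. The changes were -0.93 ± 0.16 (adjusted p = 0.00101) over control culture, 0.26 ± 0.16 (adjusted p = 0.277) with BPA and 0.70 ± 0.16 (adjusted p = 0.0204) with NP.

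Mthfd2 gave log2 signals of 9.40, 9.13 and 8.96 on control day0 arrays, 8.30, 8.37 and 8.15 on control day8, 8.29, 8.22 and 8.15 with BPA and 8.63, 8.85 and 9.003 with NP. Mthfd2 is a mitochondrial folate enzyme. BPA arrays overlapped control day8 arrays, while NP arrays lay above both. It fell over control culture (-0.89 ± 0.14, adjusted p = 0.000573) and rose with NP (0.55 ± 0.14, adjusted p = 0.0279), and with BPA it was at -0.05 ± 0.14 (adjusted p = 0.823). The NP call of Psph ended on leaving out replicate 1 or 2 of control day8 or replicate 3 of NP day8 (adjusted p up to 0.07). The call of Mthfd2 ended on leaving out any 1 control day8 array or NP day8 replicate 2 or 3 (adjusted p up to 0.0964), and under 4 of the 10 other settings. The second probe set of Mthfd2 gave -1.15 over control culture, 0.10 with BPA and 0.35 with NP.

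Aldh18a1 gave log2 signals of 9.38, 9.43 and 9.36 on control day0 arrays, 9.41, 9.20 and 9.46 on control day8, 9.02, 8.96 and 9.05 with BPA and 9.26, 9.40 and 9.54 with NP. Aldh18a1 makes the precursor of proline. BPA arrays lay below all others, and the other groups overlapped. The fall with BPA was -0.35 ± 0.10 (adjusted p = 0.0401), a call lost on leaving out any 1 array other than control day8 replicate 2 and NP day8 replicates 1 and 3 (highest adjusted p 0.122) and under 5 of the 10 other settings. The changes over control culture (-0.03 ± 0.10) and with NP (0.04 ± 0.10) did not pass. Its 4 other probe sets gave -0.42 to 0.26 with BPA and -0.11 to 0.87 with NP.

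Psat1, the transaminase of serine synthesis, fell over control culture (-1.16 ± 0.16, adjusted p = 0.000298), as did Shmt2, the mitochondrial serine hydroxymethyltransferase (-0.94 ± 0.18, adjusted p = 0.00177). With NP they were at 0.52 ± 0.16 (adjusted p = 0.0578) and 0.47 ± 0.18 (adjusted p = 0.11), above every control day8 array without passing, and with BPA at 0.11 ± 0.16 and 0.33 ± 0.18, overlapping control day8. The 3 other probe sets of Shmt2 gave -0.65 to 1.24 with NP and -0.41 to 0.77 with BPA, while all were lower over control culture. Phgdh, the first enzyme of serine synthesis, was at 0.01 ± 0.14 over control culture. With BPA its arrays lay below control day8 (-0.36 ± 0.14, adjusted p = 0.093), and with NP they overlapped (0.09 ± 0.14).

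**Figure D3:**
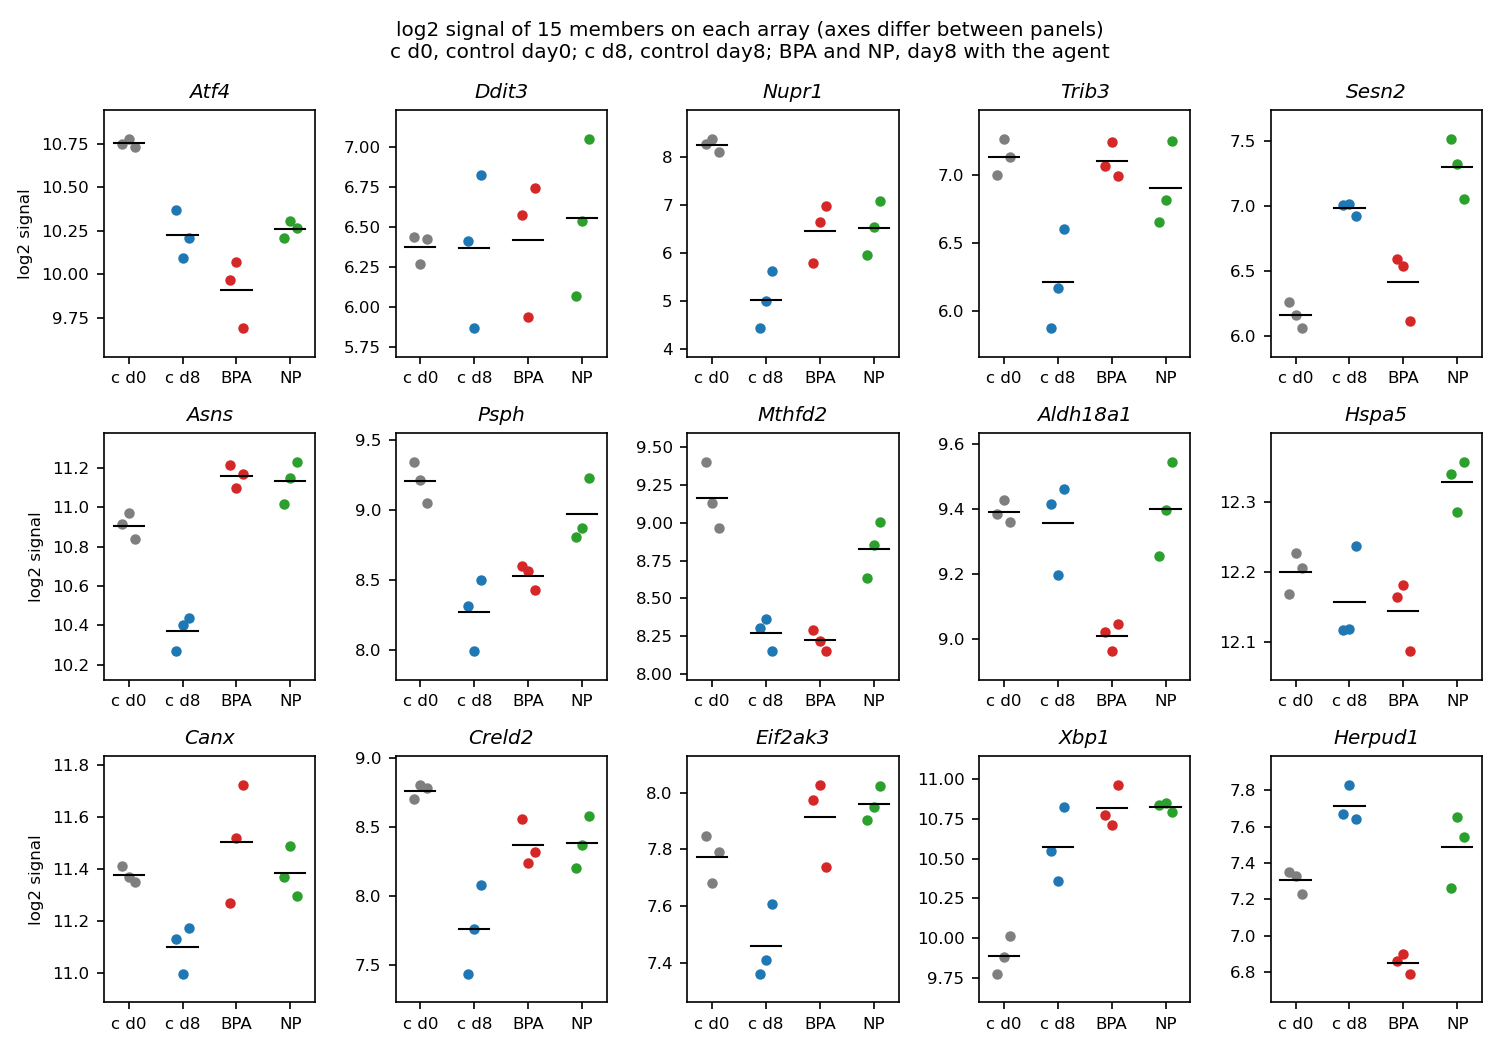
log2 signal of 15 members on each of the 12 arrays by group; points are arrays, bars group means, and each panel has its own y axis. For Asns, Nupr1, Trib3, Creld2 and Eif2ak3 the 3 control day8 arrays are lower than all 6 arrays with an agent, while for Herpud1, Sesn2 and Aldh18a1 the BPA arrays are lower than both other day8 groups.

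Of the 13 ER chaperones 4 passed over control culture, 2 with BPA and 1 with NP, which is 30.8%, 15.4% and 7.69% beside 48.7%, 22.2% and 14.2% of all genes. Hspa5 gave log2 signals of 12.17, 12.23 and 12.21 on control day0 arrays, 12.12, 12.12 and 12.24 on control day8, 12.16, 12.18 and 12.09 with BPA and 12.34, 12.29 and 12.36 with NP. Hspa5 encodes BiP, the main Hsp70 of the ER and the best known marker of ER stress. Its 12 values lay between 12.09 and 12.36. NP arrays were above all others, at 0.17 ± 0.08 (adjusted p = 0.187) against control day8, and BPA gave -0.01 ± 0.08 (adjusted p = 0.925). The change over control culture was -0.04 ± 0.08. No change of Hspa5 passed by limma in the 4 comparisons, and its lower probe sets gave 0.12 and -0.000688 with NP.

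Creld2 gave log2 signals of 8.70, 8.81 and 8.78 on control day0 arrays, 7.43, 7.76 and 8.08 on control day8, 8.56, 8.24 and 8.31 with BPA and 8.20, 8.37 and 8.57 with NP. Creld2 encodes a secreted disulphide isomerase-like protein induced by ER stress. Control day0 arrays were highest and control day8 arrays lowest, with both agents in between and no overlap. It fell over control culture (-1.01 ± 0.17, adjusted p = 0.000925) and rose with BPA (0.62 ± 0.17, adjusted p = 0.0283) and NP (0.62 ± 0.17, adjusted p = 0.0385). The BPA call ended on leaving out replicate 1 or 2 of control day8 or replicate 1 or 3 of BPA day8 (adjusted p up to 0.0953). The NP call held only without control day8 replicate 3, BPA day8 replicate 1 or NP day8 replicate 1, and the adjusted p was up to 0.128 without the others. It also ended under 4 of the 10 other settings, and the BPA call under 2.

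Canx gave log2 signals of 11.41, 11.37 and 11.35 on control day0 arrays, 11.13, 10.995 and 11.17 on control day8, 11.27, 11.52 and 11.73 with BPA and 11.37, 11.49 and 11.30 with NP. Canx encodes calnexin, a lectin chaperone for glycoproteins. Control day8 arrays lay below all others, and BPA arrays spanned the widest range. The rise with BPA was 0.40 ± 0.12 (adjusted p = 0.0403), a call lost on leaving out any 1 array other than BPA day8 replicate 1 and NP day8 replicate 3 (highest adjusted p 0.123) and under 5 of the 10 other settings. With NP the change was 0.28 ± 0.12 (adjusted p = 0.158). Its other probe sets gave 0.44 and 0.17 with BPA.

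Dnajc3, a co-chaperone that also inhibits PERK, had the largest rise among chaperones over control culture (1.04 ± 0.12, adjusted p = 0.000106). Pdia6, a disulphide isomerase, rose by 0.46 ± 0.11 (adjusted p = 0.00823), a call lost under 3 of the 10 other settings, with -0.24 on its dimmer probe set, and Dnajb9, a co-chaperone of BiP, fell (-0.36 ± 0.09, adjusted p = 0.00644). None of these 3 passed with an agent by limma. Hsp90b1, the Hsp90 of the ER, was at 0.37 ± 0.13 with BPA on its chosen probe set and at -1.09 on its other one, so its direction is not settled. Calr, the soluble partner of calnexin, and the disulphide isomerases Pdia3 and Pdia4 stayed between -0.38 and 0.18 in the 3 comparisons. Sdf2l1, Manf and Hyou1, further ER folding factors, lay between -0.36 and 0.47, and no change of these 6 genes passed by limma. Of the 8 genes with the searched form of the ER stress response element in the window, Creld2 fell and Pdia6 and Dnajc3 rose over control culture. These 8 genes thus did not share a direction.

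The sensors and Xbp1 were measured as RNA only. Eif2ak3 gave log2 signals of 7.85, 7.68 and 7.79 on control day0 arrays, 7.36, 7.41 and 7.61 on control day8, 7.98, 8.03 and 7.74 with BPA and 7.90, 7.95 and 8.02 with NP. Arrays of both agents lay above every control day8 array for Eif2ak3, the gene of the sensor PERK. The changes were -0.31 ± 0.11 (adjusted p = 0.0382) over control culture, 0.45 ± 0.11 (adjusted p = 0.0166) with BPA and 0.50 ± 0.11 (adjusted p = 0.0178) with NP. The first call ended without control day0 replicate 1 or 3, BPA day8 replicate 1, NP day8 replicate 1 or 2, or control day8 replicate 1 or 2 (adjusted p up to 0.122), and under 4 of the 10 other settings. The agent calls ended without either of the same 2 control day8 arrays, without BPA day8 replicate 1 or 2, and without NP day8 replicate 2 or 3 (adjusted p up to 0.0645 with BPA and 0.0703 with NP). Xbp1 gave log2 signals of 9.77, 9.88 and 10.01 on control day0 arrays, 10.55, 10.36 and 10.82 on control day8, 10.77, 10.71 and 10.97 with BPA and 10.84, 10.85 and 10.79 with NP. Control day0 arrays lay below all others, and the day8 groups overlapped. Xbp1 rose by 0.69 ± 0.13 (adjusted p = 0.00188) over control culture and was at 0.24 ± 0.13 with BPA and 0.25 ± 0.13 with NP. Spliced and unspliced Xbp1 RNA were not separated here. The 3 other probe sets of Xbp1 gave 0.65, 0.56 and -0.34 over control culture. On the mean of all its probe sets the Xbp1 call ended, and so did those of Ern1 and Sel1l over control culture. Ern1 rose over control culture (0.74 ± 0.14, adjusted p = 0.00193), while Atf6 was at -0.01 ± 0.22, and neither passed with an agent by limma.

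Herpud1 encodes a membrane protein that organises removal of misfolded proteins from the ER. Herpud1 gave log2 signals of 7.35, 7.33 and 7.23 on control day0 arrays, 7.67, 7.83 and 7.64 on control day8, 6.86, 6.90 and 6.79 with BPA and 7.26, 7.65 and 7.54 with NP. BPA arrays lay below all others, and NP arrays overlapped control day8. Herpud1 rose over control culture (0.41 ± 0.11, adjusted p = 0.014), a call that ended without control day8 replicate 2 (adjusted p = 0.0512) and under quantile normalization or median centring. It fell with BPA (-0.86 ± 0.11, adjusted p = 0.00107), and that call held without each of the 12 arrays (adjusted p up to 0.00561). With NP it was at -0.23 ± 0.11 (adjusted p = 0.218). Its other probe set gave -1.06 with BPA and -0.39 with NP. Sel1l, the scaffold of the same ubiquitin ligase, rose over control culture (0.60 ± 0.16, adjusted p = 0.0128). Edem1, which selects glycoproteins for degradation, and Syvn1, the ligase itself, lay between -0.11 and 0.33 in the 3 comparisons without passing. Over control culture the second probe set of each had the opposite sign (-0.24 for Edem1 and -0.23 for Syvn1).

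**Figure D4:**
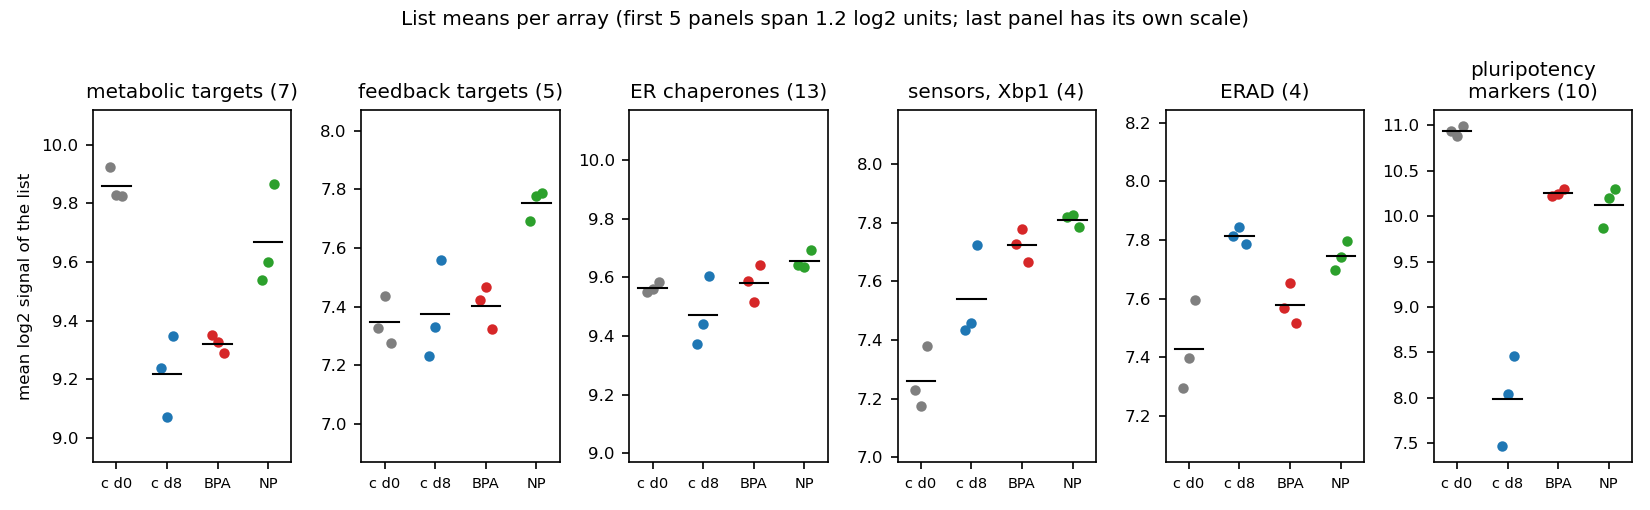
Mean log2 signal on each array of the metabolic and feedback ATF4 targets, ER chaperones, sensors with Xbp1, degradation genes (ERAD) and pluripotency markers; points are arrays and bars group means. The metabolic targets range from 9.82 to 9.92 on control day0 arrays, 9.07 to 9.35 on control day8, 9.29 to 9.35 with BPA and 9.54 to 9.87 with NP, and the chaperones from 9.37 to 9.69 over all 12 arrays.

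Set side by side, the 12 ATF4 targets (feedback and metabolic) had a mean log2 signal of 8.81 ± 0.04 (SD, n = 3) on control day0 arrays, 8.45 ± 0.13 on control day8, 8.52 ± 0.05 with BPA and 8.87 ± 0.12 with NP. The 13 ER chaperones had 9.56 ± 0.02, 9.47 ± 0.12, 9.58 ± 0.06 and 9.66 ± 0.03 in turn. Against control day8, on the chosen probe sets, all 12 ATF4 targets were above 0 with NP, with a median change of 0.50. With BPA 6 of 12 were above 0, with a median of 0.03. Nupr1, which rose with both agents, is listed with the regulators and is not among the 12. By limma 3 of the 12 rose with NP (25%, beside 14.2% of all genes). With BPA 2 rose and 2 fell (33.3%, beside 22.2%). With NP Aldh18a1, Ppp1r15a, Phgdh and Ddit4 lay between 0.04 and 0.10. Sesn2, Shmt2 and Aldh18a1 each had another probe set below 0 with NP, while those of Trib3, Asns, Psat1, Phgdh and Mthfd2 were above 0. For the chaperones 9 of 13 were above 0 with NP (median 0.18) and 8 of 13 with BPA (median 0.13). The lists were not tested as such, because the genes were chosen with results of these arrays known. The pluripotency markers, whose means are given above, fell over control culture (10 of 10, median change -3.08), and against control day8 all 10 rose with BPA (median 2.29) and with NP (median 2.11), by limma. Their part in the changes of the targets was not tested.

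The direct comparison of the agents at day 8 gave few calls over the whole array. By limma 0 of the 40 members passed, and 1 of 13067 genes (0.00765%), Tgfb3, a growth factor gene named after its value was seen, whose BPA mean lay under background. At an unadjusted p under 0.05 there were 14 members, 12 of them higher with NP, beside 8.38% of all genes (3.85% higher and 4.53% lower). NP arrays lay above BPA arrays without overlap for 14 members, beside 7.21% of all genes, and below them for 2, beside 9.74%. In the metabolic list 6 of 7 genes lay above 0 (median 0.42) and 5 had an unadjusted p under 0.05. In the chaperone list 10 of 13 lay above 0 (median 0.03), 2 with an unadjusted p under 0.05. The median over all genes was -0.02. The same counts above 0 were found for both lists after quantile normalization and after median centring. The means of the 12 endoderm markers, 8.49 to 8.82 with BPA and 9.07 to 9.20 with NP, did not overlap either, and 12 of 12 lay above 0 with 0 passing by limma (1 at an unadjusted p under 0.05). Their part in the difference was not tested.

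By gene, the differences NP minus BPA with the smallest unadjusted p were those of Sesn2, 0.89 (95% interval 0.54 to 1.23), Herpud1, 0.64 (95% interval 0.38 to 0.89), Mthfd2, 0.61 (95% interval 0.30 to 0.91), and Chac1, 0.88 (95% interval 0.42 to 1.35). Their adjusted p was 0.277, 0.277, 0.324 and 0.343. The second probe set of Sesn2 gave -0.08, that of Herpud1 0.68 and that of Mthfd2 0.26, so the difference of Sesn2 rests on 1 of its 2 probe sets. With 64 added to each signal before log2, Chac1 and Sesn2 passed (adjusted p = 0.0493 and 0.0346). Aldh18a1 differed by 0.39 (95% interval 0.16 to 0.62), Phgdh by 0.46 (95% interval 0.14 to 0.77) and Atf4 by 0.35 (95% interval 0.09 to 0.61). Asns differed by -0.03 (95% interval -0.24 to 0.18), Creld2 by 0.01 (95% interval -0.37 to 0.39), Xbp1 by 0.01 (95% interval -0.28 to 0.30) and Eif2ak3 by 0.05 (95% interval -0.20 to 0.29), intervals that hold 0 and leave out a difference of 1 log2 unit in either direction. For Nupr1 the interval was wider, 0.06 (95% interval -0.81 to 0.94). Cebpb and Syvn1 were the members at an unadjusted p under 0.05 that lay lower with NP, by -0.41 (95% interval -0.78 to -0.04) and -0.26 (95% interval -0.51 to -0.01).

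**Figure D5:**
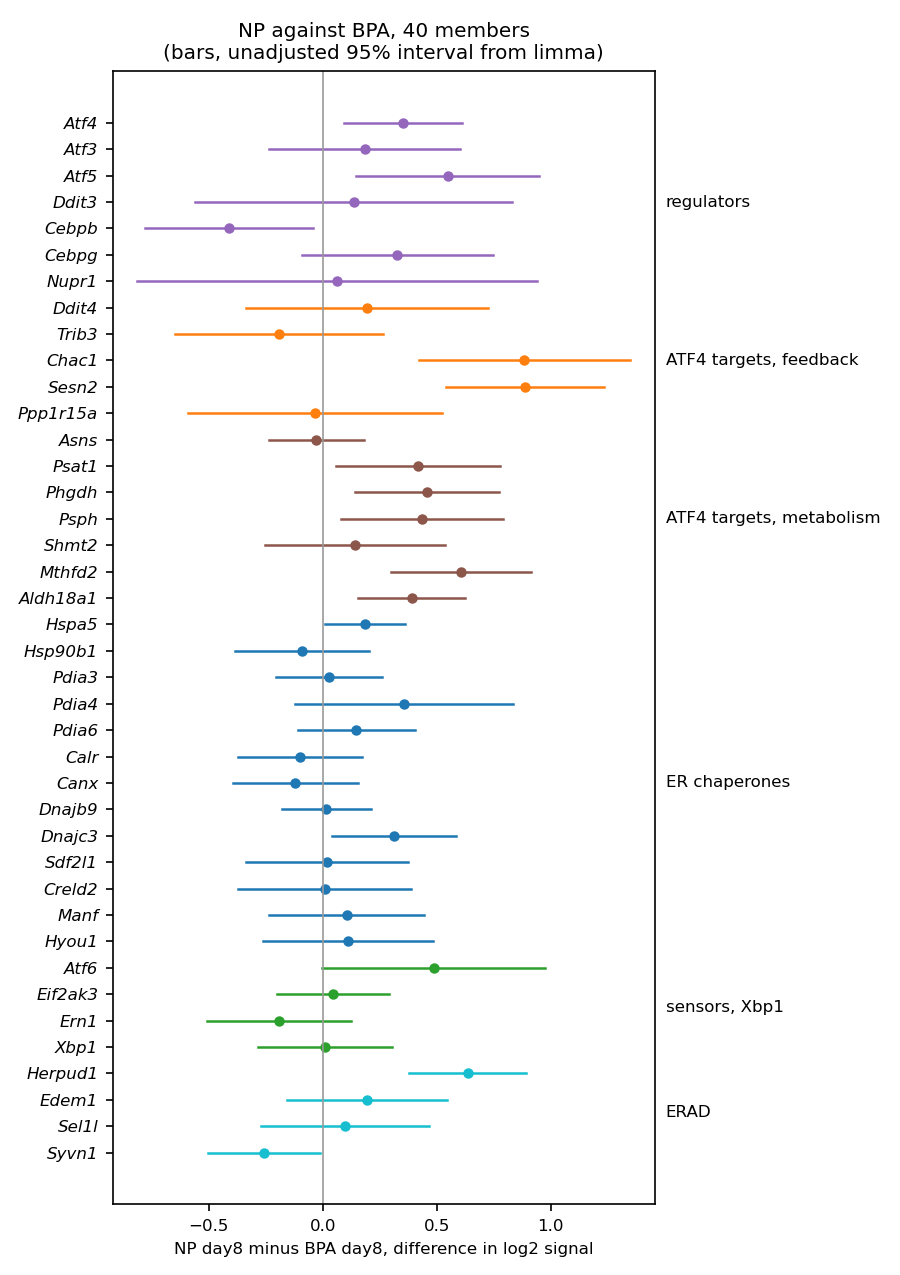
Difference in log2 signal between NP day8 and BPA day8 for each of the 40 members, coloured by role, with unadjusted 95% intervals from limma; 31 members lie right of 0, and 0 passed after adjustment. Chac1, Sesn2, Herpud1 and Mthfd2 lie farthest to the right.

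Related genes outside the list were counted in the same way. Of 22 further ATF4 targets tested, 2 rose and 13 fell over control culture, 7 rose and 2 fell with BPA, and 8 rose and 2 fell with NP. That is 68.2%, 40.9% and 45.5% in turn, beside 48.7%, 22.2% and 14.2% of all genes. Against control day8 their median change was 0.30 with BPA (16 of 22 above 0) and 0.46 with NP (20 of 22). These medians lay closer together than those of the 12 ATF4 targets in the list (0.03 and 0.50). For NP minus BPA their median was 0.20, with 16 of 22 above 0. By limma 3 of the 22 had an unadjusted p under 0.05, beside 8.38% of all genes. Slc7a3, a transporter of cationic amino acids, went from 10.18 ± 0.14 (SD, n = 3) to 7.30 ± 0.12 over control culture and was at 8.83 ± 0.13 with BPA and 9.47 ± 0.51 with NP. Its changes were -2.88 ± 0.22 (adjusted p = 1.34e-05), 1.53 ± 0.22 (adjusted p = 0.00163) and 2.17 ± 0.22 (adjusted p = 0.000744). Gadd45a, a gene of growth arrest, changed by -1.81 ± 0.18, 1.66 ± 0.18 and 1.91 ± 0.18, and all 3 passed. Vldlr, a lipoprotein receptor, went the other way, with 2.52 ± 0.21, -1.17 ± 0.21 and -0.76 ± 0.21, all past the threshold, but the last call held only without control day0 replicate 1 or 3 or BPA day8 replicate 1 (adjusted p up to 0.142 without the others). Slc7a3 and Gadd45a passed without each of the 12 arrays.

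Aminoacyl-tRNA synthetases, which charge tRNAs and are in part ATF4 targets, fell for 16 of 19 genes over control culture and rose for 1, with a median of -0.67. With BPA 4 of 19 rose and with NP 5 of 19, and 0 fell with either by limma (medians 0.21 and 0.32, with 17 of 19 above 0 in both). The share called was 89.5% over control culture, beside 48.7% of all genes, and 21.1% with BPA, near the 22.2% of all genes. With NP it was 26.3%, beside 14.2%. Aars changed by -1.16 ± 0.12 (adjusted p = 4.57e-05), 0.55 ± 0.12 (adjusted p = 0.00911) and 0.57 ± 0.12 (adjusted p = 0.0125), and Lars by -1.05 ± 0.09 (adjusted p = 2.42e-05), 0.33 ± 0.09 (adjusted p = 0.0289) and 0.57 ± 0.09 (adjusted p = 0.00462). The NP call of Aars ended without control day8 replicate 1 or NP day8 replicate 2 (adjusted p up to 0.0541). That of Lars with BPA was lost on leaving out replicate 1 or 3 of control day8, or 1 or 2 of BPA day8 (highest adjusted p 0.0961). Qars was the gene that rose (0.58 ± 0.19, adjusted p = 0.031), a call that ended without control day0 replicate 1 or 3 or control day8 replicate 3 (adjusted p up to 0.0999).

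Further genes of ER folding and export had 22 of 43 members higher and 3 lower over control culture, 4 higher and 5 lower with BPA, and 2 higher and 3 lower with NP. The share called was 58.1%, 20.9% and 11.6%, beside 48.7%, 22.2% and 14.2% of all genes, and so with the agents no more often than other genes. Ero1a, the ER oxidase, rose over control culture by 1.78 ± 0.13 (adjusted p = 9.66e-06) and Txndc5, a disulphide isomerase, by 0.98 ± 0.09. Txndc5 fell with BPA (-0.57 ± 0.09, adjusted p = 0.00299) and NP (-0.41 ± 0.09, adjusted p = 0.0208), the latter not on leaving out replicate 1 or 2 of control day8 or of NP day8 (adjusted p up to 0.0803). Derl3, a factor that helps export misfolded proteins, fell by 1.58 ± 0.32 over control culture (adjusted p = 0.00243) and rose by 2.29 ± 0.32 (adjusted p = 0.00135) with BPA and 1.85 ± 0.32 (adjusted p = 0.00606) with NP, the largest rises of this list. The 21 genes that control eIF2 or relate to ATF6 had 6 higher and 4 lower over control culture, 2 and 1 with BPA, and 2 and 2 with NP. The share called was 47.6%, 14.3% and 19.0%, beside the same shares of all genes. Eif2s2, the beta subunit of eIF2, changed by -0.60 ± 0.08, 0.71 ± 0.08 and 0.62 ± 0.08, and Creb3l2, a relative of ATF6, by 2.09 ± 0.21, -1.09 ± 0.21 and -1.12 ± 0.21, and all 6 changes passed, also without each of the 12 arrays.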

How the data were processed

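RNA from 12 samples was hybridised to an Affymetrix mouse array. The authors deposited log2 signals per probe set, made with MAS5 per the submitters' processing notes, version and scaling target not stated; the 2% trimmed mean of the linear signal was 100.0 on every array. Values were used as deposited. Of 45101 probe sets, 34945 carried 1 gene in the platform's gene table, 932 several and 9211 had no entry. RefSeq held the Entrez identifier of 34741 probe sets with 1 gene. Control probe sets (64) were left out, the 60% with the highest mean kept (27023), and per gene the probe set with the strongest average signal used.

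Group means were estimated jointly from the 12 arrays by limma 3.58.1 (R 4.3.3) (8 residual and 1.57 prior degrees of freedom), 2-sided, in 4 comparisons. The code was tested on simulated data. The number of arrays limits precision. Values of further probe sets above the filter are given for the genes printed array by array and for some others; agreement in sign is counted for all members in the closing section. Members with all values printed were Atf4, Ddit3, Asns, Hspa5, Xbp1 and the further members past the threshold in a comparison with an agent; of other lists, up to 3 genes per direction were named. The members, lists and rules were chosen with earlier results of these data known. Alternatives were 2 pseudocounts, no filter and a 40% filter, quantile normalization, median centring, mean of probe sets, a robust trended prior, only the compared groups, the replicate number as a block, and each array left out. Promoter sequences are RefSeq's (GRCm38.p6). Figures used matplotlib 3.10.9 in Python 3.11.15.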

Additional observations from a re-analysis of the deposited data

How the results depend on the processing

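Over control culture the count of members called was 18 to 26 under the 10 other settings (23 as reported) and 21 to 24 with an array left out, and the count of genes 5515 to 6285. With BPA, 14 members passed with a pseudocount of 64 and with the robust trended prior, 5 with no filter and 3 with only the compared groups in the fit, and 2 to 9 with an array left out (1822 to 2949 genes). With NP the members were 11 with a pseudocount of 64 and with the robust trended prior, 3 with no filter and 1 with only the compared groups, and 1 to 7 with an array left out (802 to 1874 genes). The genes called with NP were 2800 with a pseudocount of 64, 1182 with no filter and 645 with only the compared groups. In NP against BPA, 34 genes passed with a pseudocount of 64, 2 of them members, 4 with no filter and 3 with the mean of probe sets. There were 0 with a pseudocount of 16, a 40% filter, median centring, the robust trended prior or only the compared groups, and 0 to 3 genes and 0 members with an array left out. The fit of the compared groups has fewer arrays; the cause of the other shifts was not tested. The median change of all genes over control culture was 0.12 as deposited and 0.01 after median centring. Across the 40 members and 4 comparisons no called change reversed. Among 1600 values under the 10 settings, 44 lost and 50 gained a call. Among 1920 values with an array left out, 70 lost and 10 gained a call. These totals include changes that were not called as reported and so had no call to lose. The calls as reported were 23 over control culture, 9 with BPA, 6 with NP and 0 between the agents. Of the calls with an agent, only those of Asns and that of Herpud1 with BPA held without each array in turn.

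Same-numbered replicates of different groups deviated together with correlations of -0.01 to 0.08 over all genes tested, and other pairs with -0.11 to 0.06. A small correlation over all genes cannot show whether some genes follow the replicate number. The signal of Nupr1, for example, rose with the replicate number in every day8 group. The labels do not say if same-numbered arrays share a culture, so pairing is not settled. With the replicate block, 22, 7 and 5 members passed in the comparisons with a control group and 0 in NP against BPA, and 6175, 2646, 1551 and 0 genes. Of the 28 members with several probe sets above the filter, 14 had changes of 1 sign over all of them over control culture. The number was 14 for BPA and 16 for NP, each against control day8, and 12 between the agents.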
